A study of Mus musculus with 12 samples.

Results

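The genes described here are 10 genes of the NRF2 oxidative stress response, measured in RAW 264.7 cells, a macrophage line from mice transformed by Abelson murine leukemia virus. NRF2, encoded by Nfe2l2, is a transcription factor that KEAP1 normally holds in the cytoplasm and hands over for degradation. Oxidants and electrophiles modify KEAP1, and the NRF2 that then accumulates binds antioxidant response elements together with small MAF proteins. Its targets make glutathione, regenerate thioredoxin, detoxify quinones and break down heme, and in macrophages they limit the damage done by the cell's own oxidative burst.

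The cells were transfected with a scramble control (Scramble), a mimic of the microRNA miR-223 (Pre-miR-223) or an inhibitor of it (Anti-miR-223), and RNA was taken 48 h later. There were 4 arrays per group and 12 in all, and their titles number them as biological replicates. The labels do not say whether replicates came from separate transfections, so p-values measure the spread among these arrays, part of which may be technical. All groups shared the same transformed line, and no untransfected group is among the samples used here.

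Members were the probe clusters whose only annotated gene symbol was Nfe2l2, Nqo1, Hmox1, Gclc, Gclm, Slc7a11, Txnrd1, Srxn1, Prdx1 or Sqstm1. Of the 41345 probe clusters in the table, 10 met this rule and they covered 9 of the 10 genes. Prdx1 was named only by clusters that listed several symbols, so it was not measured here. Slc7a11 had 2 clusters, and its brighter one was used. All 9 genes passed the filter on level, a mean of 2.01 on the log2 scale, and Nqo1 passed it narrowly with a mean of 2.09. The fit covered 14611 genes.

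The labels do not say which arm of miR-223 the reagents carry or block, and no cluster of the miRNA itself was used, so delivery was not checked. Both mature arms are shown, because they define the treatment, with the seed (bases 2 to 8) in capitals. The sequences are from RefSeq on GRCm38.p6, where the -3p arm lies at chrX:96242884-96242905 and the -5p arm at chrX:96242842-96242864, both on the plus strand.
mmu-miR-223-3p: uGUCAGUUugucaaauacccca
mmu-miR-223-5p: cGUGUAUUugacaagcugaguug

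The antioxidant response element is the DNA feature that ties these genes to NRF2, so the promoters were searched for its core, TGACNNNGC on either strand (GCNNNGTCA on the other). RefSeq promoter windows, 250 bases before to 50 bases after a start, were at hand for 7 of the genes, in 9 windows, of which Txnrd1 had 3. The core was found in 4 of the 9 windows, 1 each of Nfe2l2, Gclm, Txnrd1 and Srxn1, and in 12.4% of all 32851 windows. The NF-E2 type site of 10 letters, a stricter form that contains the core, was in 0 of the 9 windows, 0 of the 102 windows of other pathway genes and 0.155% of all windows. Among windows of the other pathway genes listed further on, the shorter core was in 16 of 102 (15.7%). The windows of Nqo1, Slc7a11 and Sqstm1 held no match. The matches are shown with 10 bases on each side and the matched letters in capitals, 5′ to 3′ on the strand of the gene.
Nfe2l2: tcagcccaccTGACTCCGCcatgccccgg
Gclm: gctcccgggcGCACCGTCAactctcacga
Txnrd1: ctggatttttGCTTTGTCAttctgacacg
Srxn1: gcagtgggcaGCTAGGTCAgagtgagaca
On GRCm38.p6 these stretches lie at chr2:75704885-75704913 on the minus strand for Nfe2l2, and on the plus strand at chr3:122245413-122245441 for Gclm, chr10:82859104-82859132 for Txnrd1 and chr2:152105542-152105570 for Srxn1. A match describes the letters only, and the windows do not cover distal enhancers, where such elements can also lie.

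None of the 9 measured genes passed the test in any comparison 48 h after transfection. With the mimic all 9 genes had lower means than with scramble, by 0.01 to 0.19 on the log2 scale, where 65.2% of all genes were lower. The count was 6 of 9 after cyclic loess scaling. With the inhibitor 4 had lower and 5 had higher means. The most visible pattern was within a group: 1 of the 4 inhibitor arrays held the highest levels of Nfe2l2, Gclc, Gclm, Slc7a11 and Txnrd1 of all 12 arrays, 5 of 9 members where 34.1% of all genes were highest in it. Levels and differences are given throughout as log2 array values.

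Nfe2l2 encodes the factor itself. Its levels were 8.55, 8.89, 8.45 and 8.47 in the scramble arrays (replicates 1 to 4), 8.43, 8.61, 8.22 and 8.34 with the mimic, and 8.34, 8.44, 8.65 and 9.32 with the inhibitor. Inhibitor replicate 4 was the highest array and mimic replicate 3 the lowest, and the 3 groups overlapped. The means were 8.59 ± 0.21 for scramble, 8.40 ± 0.16 for the mimic and 8.69 ± 0.44 for the inhibitor (SD, n = 4). Against scramble the mimic differed by -0.19 (95% interval -0.59 to 0.21, limma adjusted p = 0.935) and the inhibitor by 0.10 (-0.30 to 0.50). The mimic differed from the inhibitor by -0.29 (-0.69 to 0.11), and by -0.08 without inhibitor replicate 4. Without scramble replicate 2 the mimic differed from scramble by -0.09. These intervals come from a single fit of all 12 arrays.

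**Figure D1:**
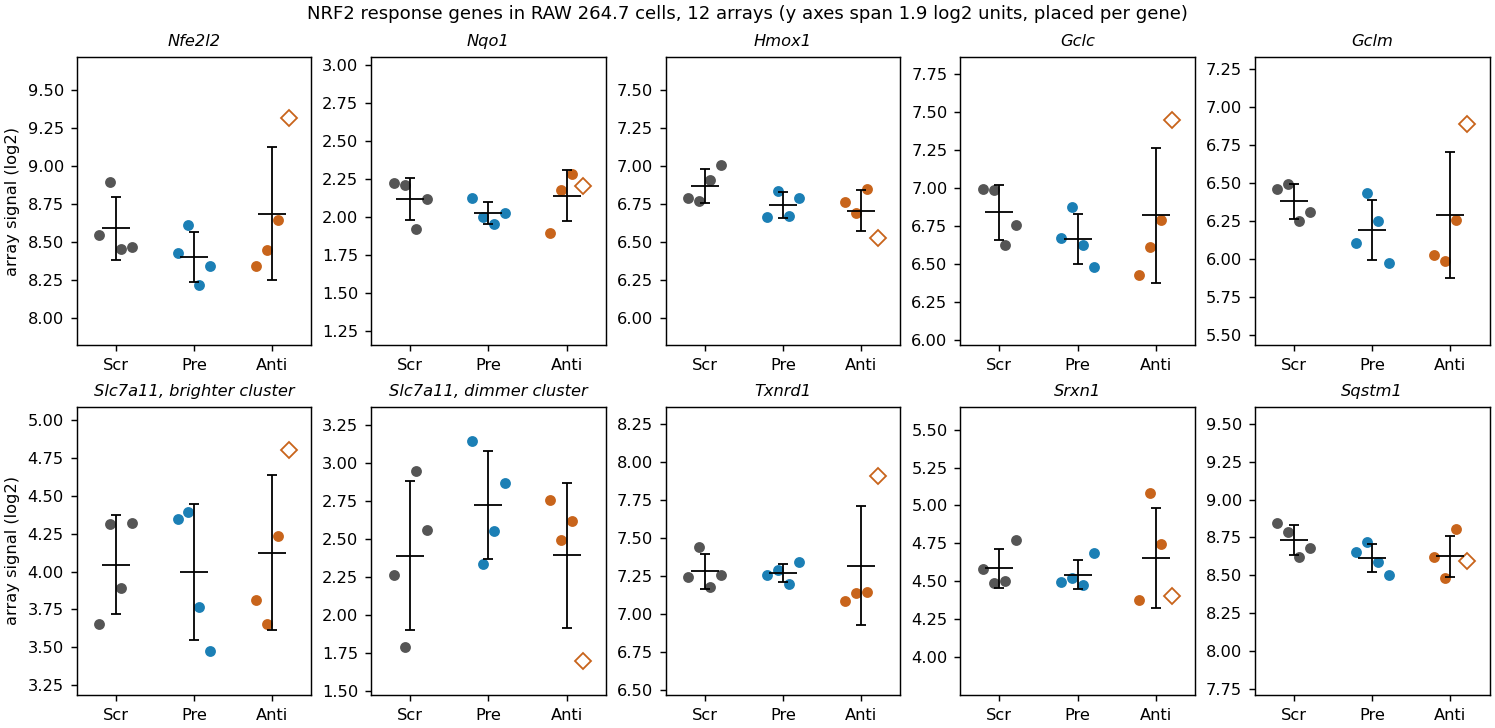
Log2 array level (y axis) of the 9 measured NRF2 genes, Slc7a11 with both clusters, by group (x axis: Scr scramble, Pre mimic, Anti inhibitor). Points are the 12 arrays, bars the mean and SD (n = 4) and open diamonds inhibitor replicate 4; the groups overlap for every gene, and that array is the top point for Nfe2l2, Gclc, Gclm, Txnrd1 and the brighter cluster of Slc7a11 and the bottom point for the dimmer one.

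Slc7a11, Gclc and Gclm supply glutathione. Slc7a11 is the cystine carrier of the cystine/glutamate exchanger, and Gclc and Gclm are the catalytic and modifier subunits of glutamate-cysteine ligase, the rate-limiting enzyme of glutathione synthesis.

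Gclc stood at 6.99, 6.99, 6.62 and 6.76 in the scramble arrays, at 6.67, 6.88, 6.62 and 6.48 with the mimic, and at 6.43, 6.61, 6.79 and 7.45 with the inhibitor. Its inhibitor group held both the lowest and the highest array, so the groups overlapped. The difference from scramble was -0.18 (-0.57 to 0.22) with the mimic and -0.02 (-0.42 to 0.38) with the inhibitor.

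Gclm had levels of 6.46, 6.49, 6.25 and 6.31 in the scramble arrays, 6.10, 6.43, 6.25 and 5.97 with the mimic, and 6.02, 5.99, 6.26 and 6.89 with the inhibitor. Inhibitor replicate 4 was again the highest, while inhibitor replicates 1 and 2 lay below every scramble array. Its mean was 6.38 ± 0.12 with scramble, 6.19 ± 0.20 with the mimic and 6.29 ± 0.42 with the inhibitor (SD, n = 4). The mimic differed from scramble by -0.19 (-0.56 to 0.19) and the inhibitor by -0.09 (-0.47 to 0.29).

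Slc7a11 was the most variable member. It read 3.66, 4.31, 3.89 and 4.32 in the scramble arrays, 4.35, 4.39, 3.77 and 3.47 with the mimic, and 3.82, 3.65, 4.23 and 4.80 with the inhibitor. High and low arrays occurred in every group, and the differences from scramble were -0.05 (-0.61 to 0.51) with the mimic and 0.08 (-0.48 to 0.64) with the inhibitor. Its dimmer cluster had other values: 2.26, 1.79, 2.95 and 2.56 with scramble, 3.15, 2.33, 2.55 and 2.87 with the mimic, and 2.75, 2.50, 2.62 and 1.70 with the inhibitor. Inhibitor replicate 4, the highest array on the brighter cluster, was the lowest on the dimmer one. On the dimmer cluster the mimic differed from scramble by 0.34 (-0.24 to 0.91) and the inhibitor by 0.00 (-0.58 to 0.58), so the clusters differed in sign for the mimic and neither passed the test.

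Txnrd1 and Srxn1 act on protein thiols: Txnrd1 is the cytosolic thioredoxin reductase, and sulfiredoxin, encoded by Srxn1, repairs over-oxidised peroxiredoxins. Txnrd1 was measured at 7.24, 7.44, 7.18 and 7.26 in the scramble arrays, 7.25, 7.29, 7.20 and 7.34 with the mimic, and 7.09, 7.14, 7.15 and 7.91 with the inhibitor. Apart from inhibitor replicate 4, the inhibitor arrays lay below every other array, within 7.12 ± 0.03 (SD, n = 3). Over all 4 arrays the inhibitor differed from scramble by 0.04 (-0.30 to 0.38), and the mimic by -0.01 (-0.35 to 0.33).

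Srxn1 ran from 4.38 in inhibitor replicate 1 to 5.08 in inhibitor replicate 2, so both ends of its range fell in the same group. Its means were 4.59 ± 0.13 with scramble, 4.54 ± 0.10 with the mimic and 4.65 ± 0.33 with the inhibitor (SD, n = 4). The differences from scramble were -0.04 (-0.35 to 0.27) for the mimic and 0.07 (-0.24 to 0.37) for the inhibitor. In inhibitor replicate 4, where Txnrd1 was at its highest, Srxn1 stood at 4.40.

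Hmox1 and Nqo1 are the best known markers of NRF2 activity; heme oxygenase 1 cleaves heme, and NAD(P)H quinone dehydrogenase 1 reduces quinones. Hmox1 gave 6.79, 6.77, 6.91 and 7.01 in the scramble arrays, 6.67, 6.84, 6.68 and 6.79 with the mimic, and 6.77, 6.69, 6.85 and 6.53 with the inhibitor. The scramble arrays reached highest and inhibitor replicate 4 lowest, yet each pair of groups overlapped. Its mean of 6.87 ± 0.11 with scramble compared with 6.74 ± 0.09 with the mimic and 6.71 ± 0.14 with the inhibitor (SD, n = 4). Hmox1 had the smallest unadjusted p of the members in both comparisons with scramble. The difference was -0.13 with the mimic (-0.34 to 0.09, limma adjusted p = 0.931) and -0.16 with the inhibitor (-0.38 to 0.06, limma adjusted p = 0.99997).

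Nqo1 lay between 1.90 and 2.28 in all 12 arrays, near the filter and, with a mean of 2.09, below the array medians of 2.21 to 2.31. The mimic differed from scramble by -0.09 (-0.33 to 0.14) and the inhibitor by 0.02 (-0.21 to 0.26).

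Sqstm1 encodes p62, an autophagy receptor that binds KEAP1 and is itself an NRF2 target. It was among the steadiest members, at 8.84, 8.79, 8.62 and 8.68 with scramble, 8.65, 8.72, 8.59 and 8.50 with the mimic, and 8.62, 8.48, 8.81 and 8.59 with the inhibitor. The highest array was a scramble array and the lowest an inhibitor array, and the groups overlapped. The mimic differed from scramble by -0.12 (-0.34 to 0.10) and the inhibitor by -0.11 (-0.32 to 0.11).

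The plot of differences sets the 9 genes side by side. With the mimic against scramble, 0 of 9 members passed an adjusted p of 0.05 in limma, as did 0% of all genes, and 0 of 9 had an unadjusted p under 0.05, against 4.87% of all genes (711 genes). With the inhibitor 0 of 9 members passed either threshold, against 0% and 2.01% of all genes (294 genes), and with the mimic against the inhibitor again 0 of 9, against 0% and 3.61% (528 genes). A test for any difference among the 3 groups gave 0 genes in all after adjustment and 442 genes before it (3.03%), none of them a member. The number of members whose groups did not overlap was 0 in each comparison, against 2.98%, 1.55% and 1.67% of all genes.

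The members shared a direction in the mimic comparison, though not under every scaling or cluster rule. All 9 members had lower means with the mimic than with scramble, where 65.2% of all genes did, and the median difference of the members was -0.12 against -0.05 over all genes. With the filter at the 60th percentile 73.9% of all genes and 8 of 8 members were lower, with medians of -0.088 and -0.12. The count of 9 depended on scaling: it was 7 of 9 after repeated quantile normalisation and 6 of 9 after cyclic loess, where 52.1% of all genes were lower. The members' median shrank as well, to -0.065 after repeated quantile normalisation and -0.015 after cyclic loess. The count was also 7 of 9 without scramble replicate 2, scramble replicate 4 or mimic replicate 3. It was 8 of 9 without mimic replicate 4, and 8 of 9 with the mean of all clusters of a gene, where Slc7a11 was higher. For the inhibitor 4 of 9 members were lower than scramble, against 52.5% of all genes, and the median difference was 0.02 over the members and -0.01 over all genes. For the mimic against the inhibitor 8 of 9 members were lower (6 of 9 after cyclic loess), against 62.8% of all genes, with medians of -0.11 and -0.04. Macrophage markers had lower means with the mimic too, in 8 of 10 cases against scramble, with a median of -0.15 (5 of 10 and -0.038 after cyclic loess). Against the inhibitor they were lower in 8 of 10, with a median of -0.23, but in 6 of 10 without inhibitor replicate 4 (-0.10). The 3 tested fibroblast markers were higher with the mimic than with scramble in 3 of 3 cases (median 0.085). The medians were 0.047 over 3 epithelial markers and -0.039 over 2 neutrophil markers, and the single lymphoid marker differed by 0.032. Apart from Krt8 at 3.52, these fibroblast, epithelial, neutrophil and lymphoid markers had means of 2.04 to 2.53, near the filter. So near it, their differences describe array values and not changes in transcripts. The part of these shifts in the differences of the NRF2 genes was not tested. These comparisons share arrays, so their values are not independent of each other.

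The intervals bound how large a change could have gone unseen. For the mimic against scramble the 95% interval lay within a 1.5-fold change either way for 7 of 9 members (82.8% of all genes), the exceptions being Nfe2l2 and Slc7a11. With the inhibitor this held for 8 of 9 members (88.1% of all genes), all but Slc7a11. For the mimic against the inhibitor it held for 7 of 9 (82.9%), again without Nfe2l2 and Slc7a11. A 2-fold change lay outside the interval of all 9 members in each comparison (98.5%, 98.9% and 97.9% of all genes). These counts come from the fit of all arrays. Inhibitor replicate 4 is in neither group of the mimic comparison with scramble, yet without it the intervals there were narrower for Nfe2l2 and Slc7a11. They ran from -0.45 to 0.07 for Nfe2l2 and from -0.49 to 0.39 for Slc7a11, both within a 1.5-fold change. Nqo1 is among the members counted each time, but so near the filter its interval bounds the array value and not a change in its transcript. In bulk RNA, fewer responding cells and a smaller response per cell cannot be told apart.

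**Figure D2:**
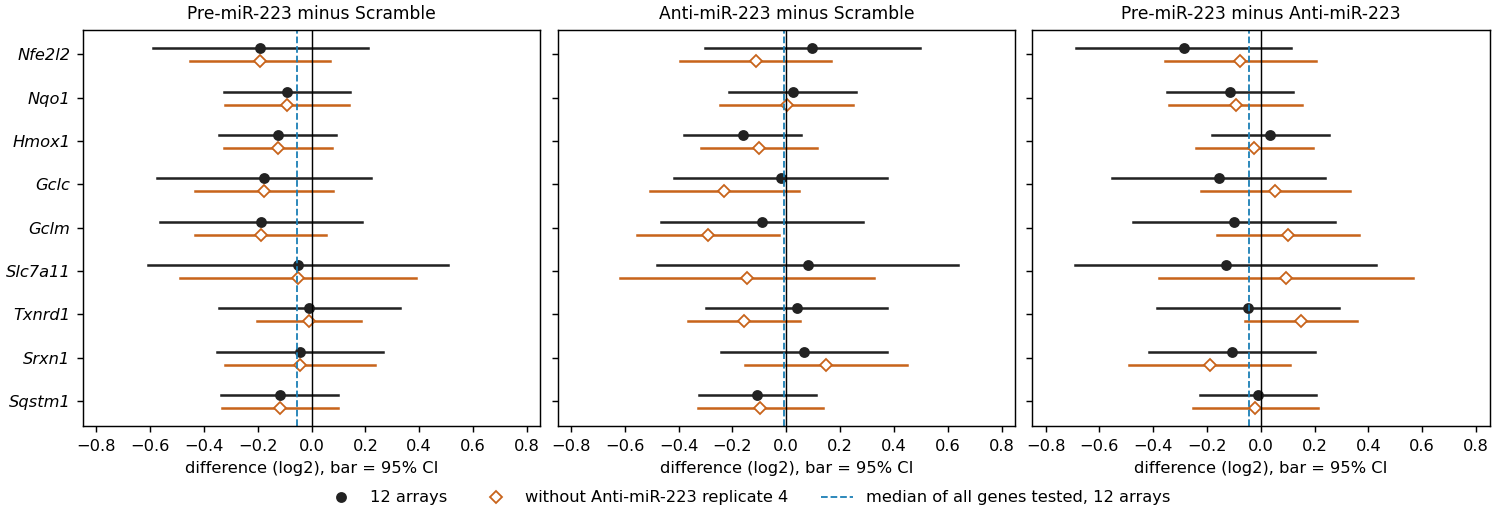
Log2 difference with its 95% interval (x axis) for each measured NRF2 gene (y axis) in the 3 comparisons, from all 12 arrays (black) and without inhibitor replicate 4 (orange diamonds); the dashed line is the median of all genes. Every 12-array interval includes 0, and the one for Slc7a11 is the widest.

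The members differed in how much they varied among arrays of the same group. The within-group SD was 0.11 for Sqstm1 and for Hmox1, 0.13 for Nqo1, 0.21 for Srxn1, 0.24 for Txnrd1, 0.27 for Gclm, 0.29 for Gclc, 0.30 for Nfe2l2 and 0.44 for Slc7a11. The median over all genes was 0.19, and 96.2% of genes had a smaller SD than Slc7a11. Several of these values were smaller without inhibitor replicate 4. Without it the SD was 0.18 for Nfe2l2 and for Gclc, 0.16 for Gclm, 0.37 for Slc7a11 and 0.08 for Txnrd1, then the smallest of the 9, beside 0.09 for Hmox1, 0.12 for Sqstm1 and a median over all genes of 0.17.

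For 5 of these genes the array farthest above its group was inhibitor replicate 4. Against the mean of the other 11 arrays it was 1.78-fold higher for Nfe2l2, 1.75-fold for Slc7a11, 1.67-fold for Gclc, 1.59-fold for Txnrd1 and 1.58-fold for Gclm, which is 5 of 9 members beyond 1.5-fold where 16% of all genes were (2344 of 14611). Of the 9 members 5 had their highest level of all arrays there, as did 34.1% of all genes. The other 4 did not share the pattern: Nqo1 deviated by 0.12, Sqstm1 by -0.07, Srxn1 by -0.21 and Hmox1 by -0.27 on the log2 scale, and Hmox1 alone was at its lowest, as were 13.5% of all genes. None of the 9 was over 1.5-fold lower (2.85% of all genes), and none reached a 2-fold deviation, which 817 genes did (5.59%). In the other 11 arrays the median member deviated by -0.23 (inhibitor replicate 1, where 0 of 9 members were above the mean of the rest) to 0.17 (scramble replicate 2, where 7 of 9 were). Among those arrays, on the clusters used, only Slc7a11 in mimic replicate 4, at -0.63, was beyond 1.5-fold. The dimmer Slc7a11 cluster stood at -0.78 in scramble replicate 2, 0.70 in mimic replicate 1 and -0.88 in inhibitor replicate 4. Of the 5 genes, Nfe2l2, Gclc, Gclm and Slc7a11 were highest in replicate 2 within the mimic group. Within the scramble group Nfe2l2, Gclm and Txnrd1 were highest in replicate 2.

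**Figure D3:**
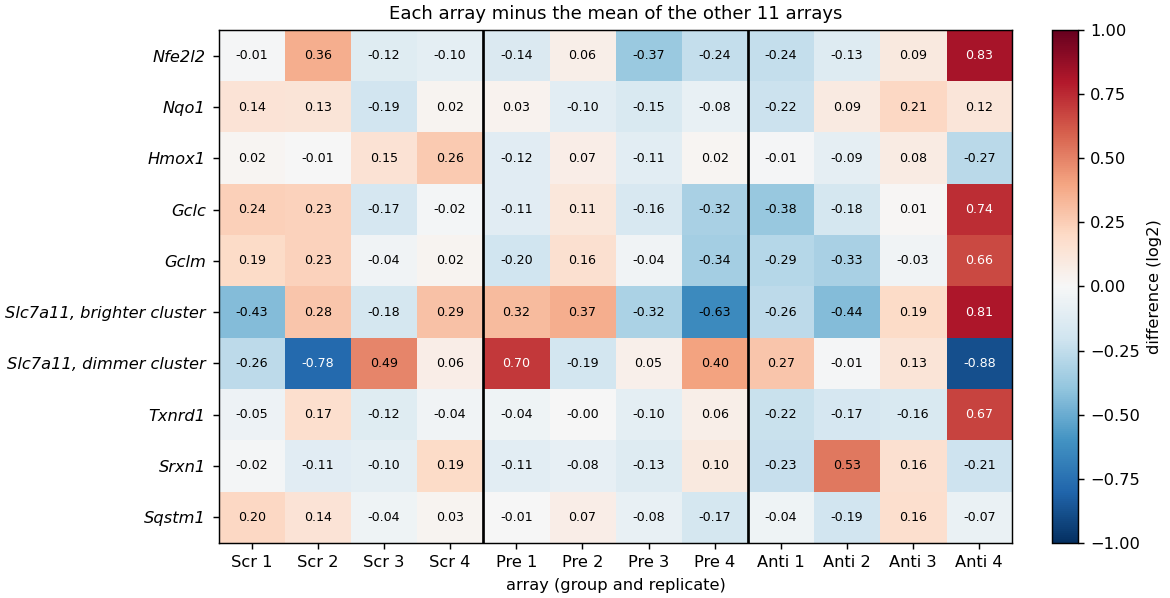
Colour and number give the log2 deviation of each measured NRF2 gene (y axis, Slc7a11 with both clusters) in each array (x axis) from the mean of the other 11. On the clusters used, inhibitor replicate 4 runs from -0.27 for Hmox1 to 0.83 for Nfe2l2.

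This array stood apart across the whole table too. Its median correlation with the other arrays was 0.967, whereas the others lay between 0.988 and 0.992. Over all genes, its deviations from the group mean correlated at 0.52 with those of scramble replicate 2 and at 0.47 with those of mimic replicate 2. The correlation was below 0 with every other scramble and mimic array. The median gene deviated by 0.08 in it and the median member by 0.66. Of 74 small nucleolar RNA genes 73 were lower in it, by a median of -1.54, and the median over protein-coding genes was 0.11. All 10 macrophage markers were higher there, with a median of 0.65, and of the tested markers of fibroblasts, epithelium, lymphocytes and neutrophils none was over 1.5-fold higher. The part of RNA composition or cell state in the levels of the NRF2 genes in this array was not tested. Over all arrays 10 of 10 macrophage markers passed the filter on level, as did 3 of 6 fibroblast, 3 of 5 epithelial, 1 of 5 lymphoid and 2 of 6 neutrophil markers. That filter reads probe brightness and does not measure shares of cells.

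**Figure D4:**
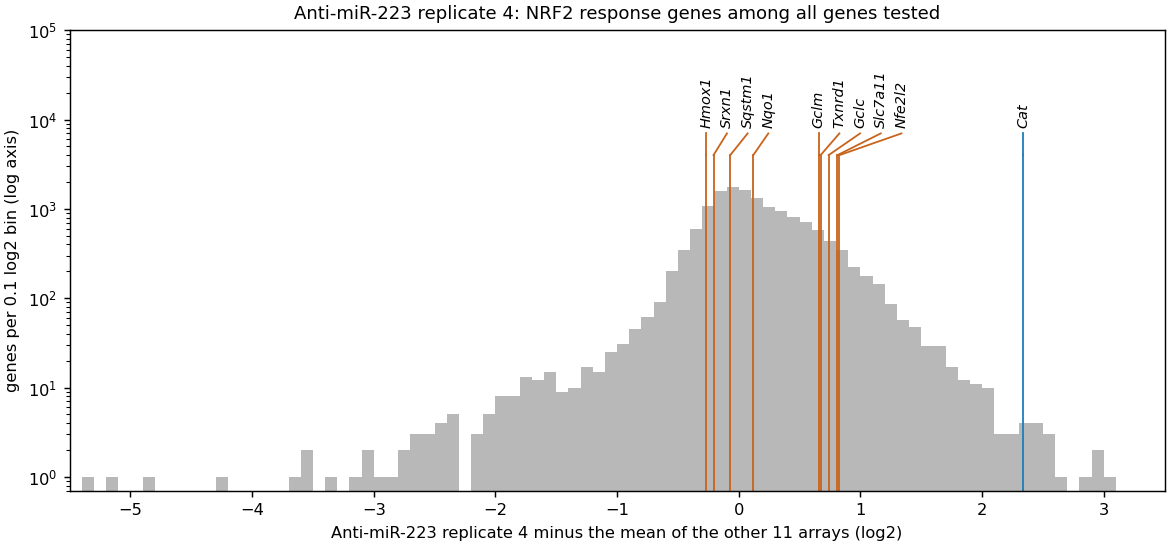
Distribution over all 14611 genes of the log2 deviation of inhibitor replicate 4 from the mean of the other 11 arrays (x axis), with the number of genes per bin on a log y axis and lines at the 9 NRF2 genes and Cat. Nfe2l2 lies above 92.4% of genes and Hmox1 above 12.5%.

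Without inhibitor replicate 4 the inhibitor comparison was read again with 3 arrays. The inhibitor means of 7 of 9 members were then lower than scramble, where 63.6% of all genes were, and the median member difference was -0.11 against -0.05 over all genes. Gclm differed by -0.29 (-0.55 to -0.03), with a limma adjusted p of 0.712. It was the only member with an unadjusted p under 0.05, a threshold that 6.69% of all genes passed (978 genes), and 0 genes passed after adjustment. Gclc differed by -0.23 (-0.51 to 0.05), Txnrd1 by -0.16 (-0.37 to 0.05), Slc7a11 by -0.14 (-0.62 to 0.33) and Nfe2l2 by -0.11 (-0.39 to 0.17). The differences of Txnrd1, Slc7a11 and Nfe2l2 had been positive with all 4 arrays. Srxn1 went the other way, at 0.15 (-0.15 to 0.45). Against these 3 inhibitor arrays the mimic's median member difference was -0.02, 5 of 9 members were lower, and 0 of 9 had an unadjusted p under 0.05 (4.89% of all genes).

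The rest of the NRF2 pathway was read from a list of 89 other regulators and target genes, of which 64 could be tested. With the mimic 56 of the 64 had lower means than scramble (87.5%, against 65.2% of all genes), with a median difference of -0.15 against -0.05. With the filter at the 60th percentile 52 of 58 were lower (89.7%, against 73.9% of all genes), with medians of -0.17 and -0.088. After cyclic loess 46 of the 64 were lower (71.9%, against 52.1% of all genes) with a median of -0.07. None of the 64 passed after adjustment, and 6 had an unadjusted p under 0.05, each lower with the mimic, against 3.85% of all genes in that direction. With the inhibitor 43 of 64 were lower (67.2%, against 52.5% of all genes), with a median of -0.04 against -0.007. After cyclic loess 37 of 64 were lower (57.8%, against 48.1% of all genes). Without inhibitor replicate 4 the count was 51 (79.7%, against 63.6% of all genes) and the median -0.14 against -0.05.

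By role, the genes of the thioredoxin and peroxiredoxin system were lower with the mimic in 10 of 10 cases, with a median of -0.26 (9 of 10 and -0.16 after cyclic loess). Quinone and carbonyl detoxification genes were lower in 8 of 8 (median -0.22), and in 7 of 8 after cyclic loess (-0.15). Peroxide and superoxide enzymes were lower in 4 of 4 (-0.23), and again in 4 of 4 after cyclic loess with a median of -0.12. Heme and iron genes were lower in 5 of 5 (-0.15) and NADPH-producing enzymes in 4 of 4 (-0.13), but in 3 of 5 (-0.047) and 2 of 4 (-0.014) after cyclic loess. Genes that use glutathione were lower in 17 of 20 (-0.16), and in 14 of 20 after cyclic loess (-0.074). The regulators were lower in 6 of 10 (-0.067, and -0.041 after cyclic loess) and the scavenger receptors in 2 of 3 (-0.013), but in 1 of 3 after cyclic loess (0.081). With the inhibitor the medians of these 8 sets ran from -0.13 to 0.05. Without inhibitor replicate 4 all 8 were below 0, from -0.26 for quinone and carbonyl detoxification (0.0015 with it) to -0.075 for the regulators.

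Gpx1, the main cytosolic glutathione peroxidase, had the smallest p of these genes. Its levels were 9.12, 9.02, 8.81 and 8.85 in the scramble arrays, 8.18, 8.75, 8.27 and 8.11 with the mimic, and 8.57, 8.50, 8.93 and 8.84 with the inhibitor. Every mimic array lay below every scramble array, and 2.98% of all genes (435) had no overlap in this comparison. The difference was -0.62 (-0.94 to -0.30), with a limma adjusted p of 0.921, so it did not pass. Mimic replicate 2 was the closest to scramble, and without it the difference was -0.76 with a limma adjusted p of 0.242. Leaving out that array also raised the genes at an unadjusted p under 0.05 from 711 to 1510. Leaving out inhibitor replicate 4 instead raised them to 1371. Blvrb, which reduces biliverdin and flavins, differed by -0.45 (-0.80 to -0.10), and Prdx4, the peroxiredoxin of the endoplasmic reticulum, also by -0.45 (-0.83 to -0.08), neither past the adjusted threshold. Without mimic replicate 4 the Prdx4 difference was -0.29.

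With the inhibitor the smallest p among these genes belonged to Gstp1, a glutathione transferase, at -0.66 (-1.31 to -0.01), then Sod2, the mitochondrial superoxide dismutase, at -0.23 (-0.47 to -0.0003), and Cbr3, a carbonyl reductase, at -0.28 (-0.61 to 0.04). Without scramble replicate 2 the differences were -0.33 for Gstp1 and -0.17 for Cbr3. The mimic against the inhibitor put Osgin1, an oxidative stress induced growth inhibitor, at -0.38 (-0.69 to -0.07), Gpx1 also at -0.38 (-0.70 to -0.06) and Gstm4, another glutathione transferase, at 0.47 (-0.02 to 0.95). Without mimic replicate 4 the values were -0.24 for Osgin1 and 0.25 for Gstm4. None of these passed after adjustment. Gstm4 passed the filter on level only narrowly, with a mean of 2.02 over all arrays. Its inhibitor mean of 1.77 lay below that filter. So near the filter, its difference describes the array value and not a change in its transcript.

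None of the regulators named in every comparison passed the test. Keap1, the inhibitor of NRF2, differed from scramble by -0.20 (-0.44 to 0.05) with the mimic and by -0.03 with the inhibitor. Mafg, a small MAF partner of NRF2, differed by -0.11 (-0.40 to 0.17) and -0.12. Bach1, a repressor that competes for the same elements, differed by 0.07 (-0.18 to 0.31) and -0.04, and the last value was 0.02 without inhibitor replicate 4. Catalase, Cat, was the pathway gene most marked by that array, at 8.84 against 6.24 to 7.04 in the other 11 arrays. Its mimic difference was -0.33 (-1.24 to 0.58, or -0.63 to -0.03 without that array), and its inhibitor difference of 0.32 (-0.59 to 1.23) was -0.29 without that array. Of the 64 other pathway genes 11 were over 1.5-fold higher in it (17.2%, against 16% of all genes).

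**Figure D5:**
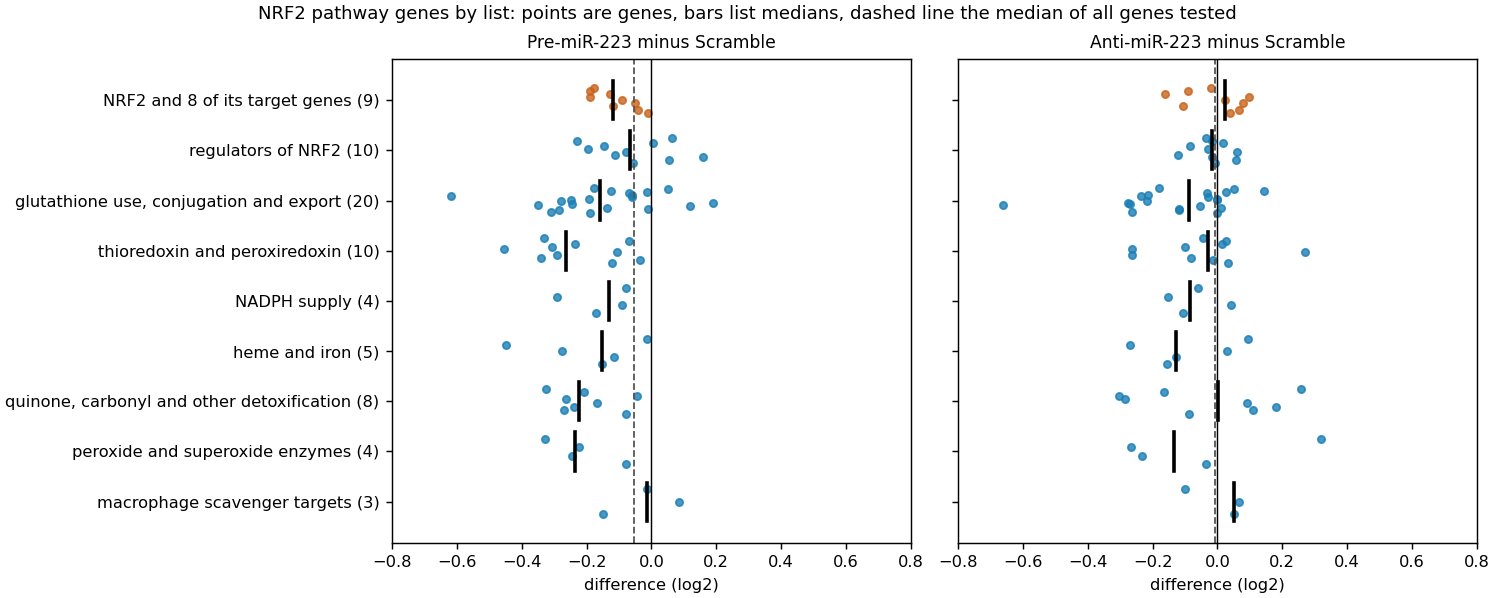
Log2 difference from scramble (x axis) of the 9 measured genes (orange) and 64 other pathway genes (blue) by role (y axis), for the mimic (left) and the inhibitor (right); bars are medians and the dashed line the median of all genes. Of the blue points 56 of 64 lie below 0 with the mimic (46 after cyclic loess) and 43 of 64 with the inhibitor (37). None of them passed after adjustment.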

How the data were processed

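Total RNA was labelled for whole-transcript GeneChip arrays, 1 per sample, per the labels. The deposited values are log2 signals per probe cluster. RMA, Expression Console (Affymetrix) and Partek are listed in the submitters' processing notes without a version. Of 41345 clusters 23521 named a single gene, 1814 several and 16010 none. For each symbol the cluster with the highest mean was kept, and genes at or below the 40th percentile (2.01) were left out, leaving 14611. A linear model of all 12 arrays (R 4.3.3, limma 3.58.1, moderated by eBayes, 9 residual degrees of freedom) gave each difference, with Benjamini-Hochberg adjustment over all genes and a threshold of 0.05; it was tested on simulated data. The number of arrays limits precision: the median 95% interval reached 0.29 either side. Other pathway genes were named as the 3 with the smallest p in each comparison, plus Keap1, Mafg, Bach1 and Cat. Members and lists were chosen with earlier results of these data known. Array medians were 2.21 to 2.31. Alternatives changed the filter, scaling, model, cluster rule and arrays used.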

Additional observations from a re-analysis of the deposited data

Results flagged for a closer look

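Txnrd1 in the inhibitor group had a replicate far from the others. Replicate 4 stood at 7.91 and the other 3 at 7.09 to 7.15, so its gap to the nearest was 0.925 of the group's range, above Dixon's 95% critical value for 4 samples. Of 30 groups of 4 arrays examined this was the only one past that value, and chance alone marks about 1 in 20.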

How the results depend on the processing

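None of 618 values of the 9 members under the alternatives passed after adjustment. Of these 571 kept their sign and 47 did not, and the lowest limma adjusted p was 0.374. Part of the 571 was fixed beforehand, so that count does not measure robustness. A change of filter, of the variance estimate or of an array in the group not compared leaves a difference unchanged, as does the replicate block. The cause of the turns was not tested. Other pathway genes named in the text are given with the members here. With array weights the sign turned in the inhibitor against scramble for Nfe2l2 (-0.012), Slc7a11 (-0.12), Txnrd1 (-0.10), Bach1 (0.0063) and Cat (-0.12), and the mimic against the inhibitor for Hmox1 (-0.050), Gclm (0.022), Slc7a11 (0.061) and Txnrd1 (0.095). Repeated quantile normalisation turned the mimic against scramble for Txnrd1 (0.045) and Srxn1 (0.013), the inhibitor against scramble for Gclc (0.020) and the mimic against the inhibitor for Sqstm1 (0.029). Cyclic loess turned the mimic against scramble for Slc7a11 (0.024), Txnrd1 (0.11) and Srxn1 (0.047), the inhibitor against scramble for Gclc (0.011), and the mimic against the inhibitor for Txnrd1 (0.034) and Sqstm1 (0.066). The mean of all clusters gave Slc7a11 0.14 for the mimic against scramble and 0.10 against the inhibitor, and Keap1 0.0093 for the latter. Centring gave Mafg -0.0021 there.

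Leaving out 1 array at a time, the mimic against scramble ran from -0.18 to 0.12 for Slc7a11, -0.043 to 0.045 for Txnrd1 and -0.090 to 0.019 for Srxn1. The inhibitor against scramble ran from -0.11 to 0.21 for Nfe2l2, -0.043 to 0.10 for Nqo1, -0.23 to 0.11 for Gclc, -0.29 to 0.010 for Gclm, -0.14 to 0.24 for Slc7a11, -0.16 to 0.12 for Txnrd1, -0.077 to 0.16 for Srxn1, -0.10 to 0.031 for Keap1, -0.13 to 0.018 for Bach1 and -0.29 to 0.56 for Cat. The mimic against the inhibitor ran from -0.025 to 0.082 for Hmox1, -0.29 to 0.053 for Gclc, -0.20 to 0.10 for Gclm, -0.29 to 0.093 for Slc7a11, -0.13 to 0.15 for Txnrd1, -0.20 to 0.035 for Srxn1, -0.059 to 0.050 for Sqstm1 and -0.094 to 0.074 for Mafg.

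The count of genes after adjustment was 0 under every alternative run. Genes at an unadjusted p under 0.05 ranged, leaving out 1 array, from 314 to 1510 for the mimic, 220 to 978 for the inhibitor and 280 to 1147 between them, and with array weights were 1884, 623 and 793. Replicate numbers did not pair the arrays: of 12 same-numbered pairs 4 had deviations correlated above 0.1, from -0.50 to 0.39. With the replicate number as a block, 0 genes passed after adjustment and 547, 248 and 408 before it. Nqo1 could not be tested with the filter at the 60th percentile. The fit of every cluster of Slc7a11 and the alternatives for the other pathway genes were chosen after seeing the data, as were the marker lists' scalings and the within-group SD without inhibitor replicate 4.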
